A study of Homo sapiens with 6 samples.

Results

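Keratins are the intermediate filament proteins of epithelial cells. A type I keratin pairs with a type II keratin to form a filament, and each epithelium uses its own pairs: KRT8 with KRT18 in simple epithelia, KRT5 with KRT14 in the basal layer of stratified epithelia, KRT6 and KRT16 after stress or injury, and other sets in the suprabasal layers, the inner root sheath and the hair shaft. The genes lie in clusters, and because cells that lose epithelial character reduce many keratins, the family is often used to read the state of breast cancer cells. The keratin genes were taken as the protein-coding genes whose symbol is KRT followed by a number, with or without a final letter, on chromosomes 12 and 17, which excludes the keratin-associated proteins (KRTAP). This gave 55 of the 19974 protein-coding genes counted on the autosomes and X, 27 on chromosome 12 (the type II genes and KRT18) and 28 on chromosome 17 (the type I genes). By the use each is best known for they fell into 5 simple epithelial, 3 basal layer, 5 stress, 13 suprabasal, 9 inner root sheath, 17 hair and 3 other keratins.

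CUT&Tag cuts out and sequences the DNA beside an antibody target, and it was run in MDA-MB-231, a mesenchymal-like triple-negative breast cancer cell line. NONO, a nuclear protein that binds DNA and RNA, was mapped in NC cells (the negative control, given as wild type in the labels) and in NONO-KD cells, in which NONO was knocked down. H3T11ph, the phosphorylation of histone H3 at threonine 11 that the kinase PKM2 can place, and H3K27ac, the acetylation found at active promoters and enhancers, were each mapped in NC cells and in PKM2-KD cells, in which PKM2 was knocked down. Each of the 6 groups had 1 library, so no difference below has a replicate check and no test between conditions could be made. The lists hold no RNA or protein level, so the knockdowns themselves were not checked here.

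The unit counted was the region, 1 row of a deposited peak list, and a gene was counted when a region touched its span plus 2 kb on each side (its window). The lists held between 36583 (H3T11ph PKM2-KD) and 572970 (H3K27ac NC) regions and came in 2 forms. The narrowest width was shared by 94.6% of regions in NONO NC (269 bp) and by 79.3% in H3K27ac NC (112 bp), but by only 1.19% to 2.05% in each of the other 4 lists. For NONO and H3K27ac, the knockdown and the way the list was made therefore cannot be told apart, whereas both H3T11ph lists had the same form. The lists hold no read totals. They do allow an estimate of the number of fragments piled at most summits (the height). It ran from 4 to 172 over the keratin regions for which it could be recovered. Of the markers expected to be active in this line, VIM, CD44, CAV1 and AXL all had, in both lists, an H3K27ac region of at least 2 times the narrowest width, and VIM, the mesenchymal intermediate filament gene, had the widest at 4305 and 4394 bp. H3K27ac regions also lay in ESR1, PGR and CDH1, which this line is known not to express, with the widest of each between 112 and 355 bp in NC and between 228 and 673 bp in PKM2-KD. A region of at least 2 times the narrowest width was found in 2 of these 3 genes in NC and in 3 of 3 in PKM2-KD, so neither a region nor a width past this limit marks a gene as active.

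The promoters below are those covered or touched by a region that the results return to, written 5′ to 3′ from 250 bases before to 50 bases after a RefSeq start (assembly GRCh38.p14, the same build as the lists). Of the 55 keratin genes, 34 had an entry in the promoter table. Capitals mark the motifs, each searched on both strands. The letters TATAAA stood for the box at which transcription of many tissue-specific genes is set. For the E-box that ZEB and SNAI factors bind, CAGGTG was searched. The box bound by SP1 and related factors was read as GGGCGG. For the site of AP-1, a factor active in stressed epithelia, the letters were TGANTCA. No one of these motifs contains another.

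KRT8, chr12:52926420-52926719, minus strand, beneath H3K27ac regions of both lists: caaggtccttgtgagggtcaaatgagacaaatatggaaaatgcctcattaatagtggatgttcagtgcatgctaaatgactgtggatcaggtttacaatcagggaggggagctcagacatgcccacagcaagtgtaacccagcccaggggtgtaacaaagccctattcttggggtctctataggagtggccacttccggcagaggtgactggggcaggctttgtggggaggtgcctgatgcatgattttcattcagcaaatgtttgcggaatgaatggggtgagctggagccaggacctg
KRT5, chr12:52520345-52520644, minus strand, beneath an H3K27ac NC region and beside a NONO NC region: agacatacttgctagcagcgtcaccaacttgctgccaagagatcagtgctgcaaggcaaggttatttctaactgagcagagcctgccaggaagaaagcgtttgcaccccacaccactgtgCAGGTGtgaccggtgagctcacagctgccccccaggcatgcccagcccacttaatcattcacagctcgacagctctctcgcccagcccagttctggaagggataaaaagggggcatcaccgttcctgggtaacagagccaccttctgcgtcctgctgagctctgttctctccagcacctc
KRT33B, chr17:41369764-41370063, minus strand, touched by the keratin NONO region of highest fold: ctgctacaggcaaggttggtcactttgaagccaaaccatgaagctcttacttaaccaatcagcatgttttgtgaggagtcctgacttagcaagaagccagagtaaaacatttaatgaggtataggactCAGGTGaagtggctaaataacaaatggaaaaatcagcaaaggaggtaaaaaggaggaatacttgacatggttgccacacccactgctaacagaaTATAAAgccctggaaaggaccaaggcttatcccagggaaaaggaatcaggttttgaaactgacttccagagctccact
KRT37, chr17:41424536-41424835, minus strand, touched by an H3K27ac PKM2-KD region: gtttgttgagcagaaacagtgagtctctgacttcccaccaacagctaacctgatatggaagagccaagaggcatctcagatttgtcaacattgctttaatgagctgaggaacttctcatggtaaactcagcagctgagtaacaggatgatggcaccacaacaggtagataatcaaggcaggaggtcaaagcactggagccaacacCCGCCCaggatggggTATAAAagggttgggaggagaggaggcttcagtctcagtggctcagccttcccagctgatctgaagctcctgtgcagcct

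The keratin promoters held the first motif more often, and the SP1 letters less often, than other promoters. TATAAA was found in 21 of the 34 genes with an entry (61.8%), against 12.4% of the 15813 genes in the table. GGGCGG was found in 6 (17.6%), against 64.3% of genes. The E-box letters were found in 8 (23.5%), close to the 24.9% of all genes. TGANTCA was found in 0 of 34, which allows a share of up to 8.82%, against 8.04% of all genes. Of the 4 promoters shown, KRT33B and KRT37 carried the first motif, KRT5 and KRT33B the E-box, KRT37 the SP1 letters on the reverse strand, and the KRT8 entry none of them. That KRT8 entry is a start inside the annotated gene, which spans chr12:52897191-52949860. These matches describe letters and are not evidence that a factor was bound.

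Few keratin genes had a region of NONO or H3T11ph, while most had one of H3K27ac. NONO regions lay in 19 of 55 windows in NC (34.5%, Wilson 95% interval 23.4 to 47.7), against 71% of all protein-coding genes. In NONO-KD they lay in 8 (14.5%, interval 7.56 to 26.2), against 46.2%. H3T11ph regions lay in 9 windows in NC (16.4%, interval 8.86 to 28.3) and in 5 in PKM2-KD (9.09%, interval 3.95 to 19.6), against 51.1% and 48.1% of all genes. H3K27ac regions lay in 50 windows in NC (90.9%, interval 80.4 to 96.1), against 94.9%, and in 29 in PKM2-KD (52.7%, interval 39.8 to 65.3), against 86.2%. These intervals cover counting error only, and neighbouring genes can share a region, as KRT8 and KRT18 do where their spans meet and KRT81 and KRT86 do where one lies inside the other.

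Keratin genes were also shorter, with a median window of 10.4 kb against 28.2 kb over all genes, and the part of gene length in these shares was not tested. NONO NC placed 27 regions (exact Poisson 95% interval 17.8 to 39.3) in the 724.3 kb of keratin windows, or 37.3 per Mb, against 36.2 per Mb over the windows of all genes. NONO-KD placed 11 (interval 5.49 to 19.7), or 15.2 per Mb against 15.5. H3T11ph NC placed 14 (interval 7.65 to 23.5), or 19.3 per Mb against 15.7, and H3T11ph PKM2-KD placed 6 (interval 2.20 to 13.1), or 8.28 per Mb against 14.2. For all 4 of these lists the density over all genes lay inside the counting interval of the keratin density. H3K27ac stood above it, with 190 regions (interval 163.9 to 219.0) in NC, or 262.3 per Mb against 224.1. In PKM2-KD it had 84 (interval 67.0 to 104.0), or 116.0 per Mb against 92.1. In both lists the lower limit of the interval lay close to the density over all genes. Among the stretches of keratin genes described below, the density ran from 138.9 (KRT222 to KRT40) to 418.6 per Mb (KRT8 and KRT18) in NC. In PKM2-KD it ran from 35.1 (KRT83 to KRT78) to 271.3 per Mb (KRT80 to KRT86). The keratin windows were also more fully covered, at 5.70% of their length in NC and 5.67% in PKM2-KD, against 3.76% and 2.96% for all genes.

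**Figure D1:**
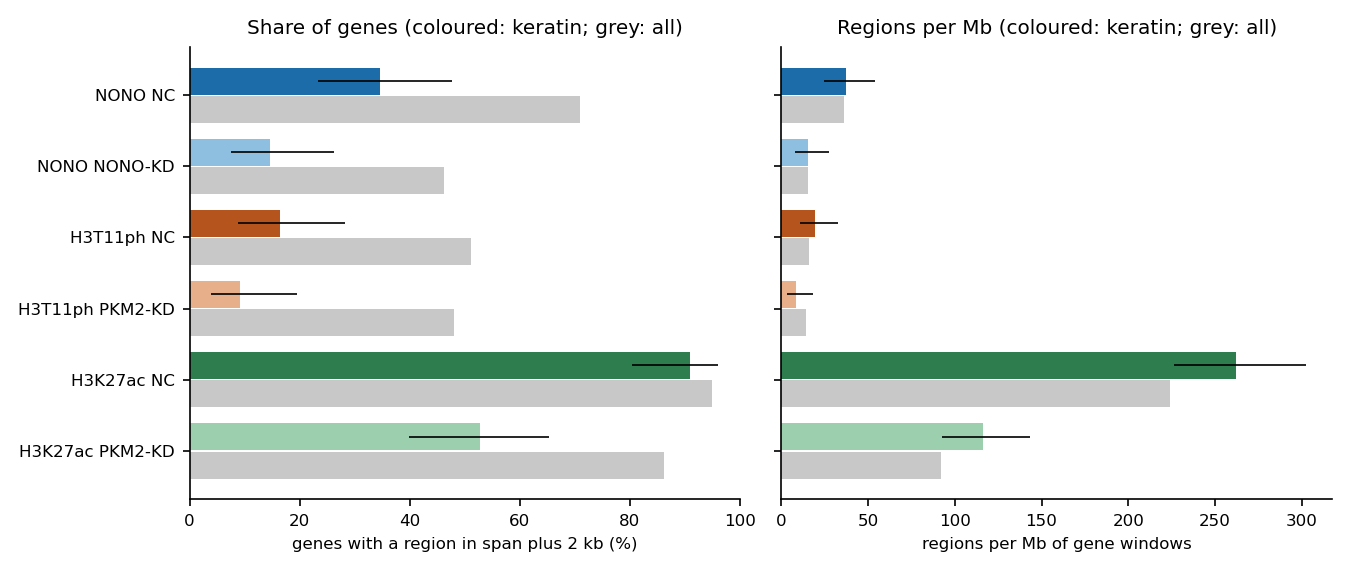
Left, the percentage of genes with a region in their span plus 2 kb in each of the 6 lists, for the 55 keratin genes (coloured, with Wilson 95% intervals) and all 19974 protein-coding genes (grey). Right, regions per Mb of the same windows (coloured bars with exact Poisson 95% intervals; grey, all genes); the keratin share is below the grey bar in every list, while the density per Mb is above the grey bar in both H3K27ac lists (262.3 against 224.1 in NC) and the grey bar falls inside the keratin interval in the other 4.

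At starts each window had 1 length, though a gene with more than 1 promoter entry was searched at each of them. There the keratin share was also below that of all genes in every list. For NONO NC, NONO-KD and H3T11ph NC, however, the share of all genes lay inside the Wilson interval of the keratin share. Those lists thus do not show fewer regions at keratin starts beyond counting error. In NONO NC 7 keratin genes had a region within 1 kb of a start (12.7%, interval 6.30 to 24.0), against 23.5% of all genes. In NONO-KD 4 had one (7.27%, interval 2.86 to 17.3), against 8.25%. For H3T11ph NC the count was 4 (7.27%, interval 2.86 to 17.3), against 16.1%. For H3T11ph PKM2-KD it was 2 (3.64%, interval 1.00 to 12.3), against 16%. H3K27ac lay at 27 starts in NC (49.1%, interval 36.4 to 61.9), against 71.1%. In PKM2-KD it lay at 11 (20%, interval 11.6 to 32.4), against 62.1%. For the 21 keratin genes without a promoter entry, among them KRT7, KRT18, KRT19 and KRT80, both ends of the gene were used in place of the start. Counting any shared base, H3K27ac NC regions touched the promoter entries of KRT5, KRT8 and KRT36 (3 of 34, against 44.4% of the genes in the table). H3K27ac PKM2-KD regions touched those of KRT8, KRT32 and KRT37 (3 of 34, against 47.9%), that of KRT37 only at its upstream edge. A NONO-KD region touched that of KRT33B (1 of 34, against 3.45%). Among the 34 keratin genes with an entry, KRT8 was thus the one whose entry lay under H3K27ac in both lists. KRT7, KRT18, KRT19, KRT23, KRT80 and KRT86, whose H3K27ac is described below, had no entry and could not be counted here.

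H3K27ac on keratin genes was uneven, and the genes with a wide region in both lists were mainly those of simple epithelia and those at the ends of the type II cluster. A wide region, at least 2 times the narrowest width of its list, lay in 15 of 55 keratin windows in NC (27.3%), against 64% of all genes. In PKM2-KD one lay in 14 (25.5%), against 69.1%. Both lists had one in 8 keratin genes (56.3% of all genes), namely KRT80, KRT7, KRT86, KRT8, KRT18, KRT23, KRT34 and KRT19. NC alone had one in 7 (KRT6A, KRT5, KRT73, KRT2, KRT39, KRT13 and KRT17, against 7.72% of all genes), and PKM2-KD alone in 6 (KRT81, KRT82, KRT10, KRT20, KRT37 and KRT15, against 12.8%). The 8 shared genes were also the 8 with the greatest H3K27ac length summed over both lists. As a share of its own window, KRT19 had 25.4% covered in NC and 27.1% in PKM2-KD, KRT80 22.8% and 35.6%, KRT34 16.3% and 18.3%, KRT7 15.5% and 28.8%, KRT8 12.8% and 12.5%, KRT18 11.1% and 15.6%, KRT86 9.58% and 13.7%, and KRT23 6.63% and 6.95%. These windows take in 2 kb on each side, and the widest regions of KRT19 and KRT23 lay below the gene itself in both lists. Their shares thus rest largely on flanking sequence. With 1 library per group, neighbours in this order cannot be set against a spread.

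**Figure D2:**
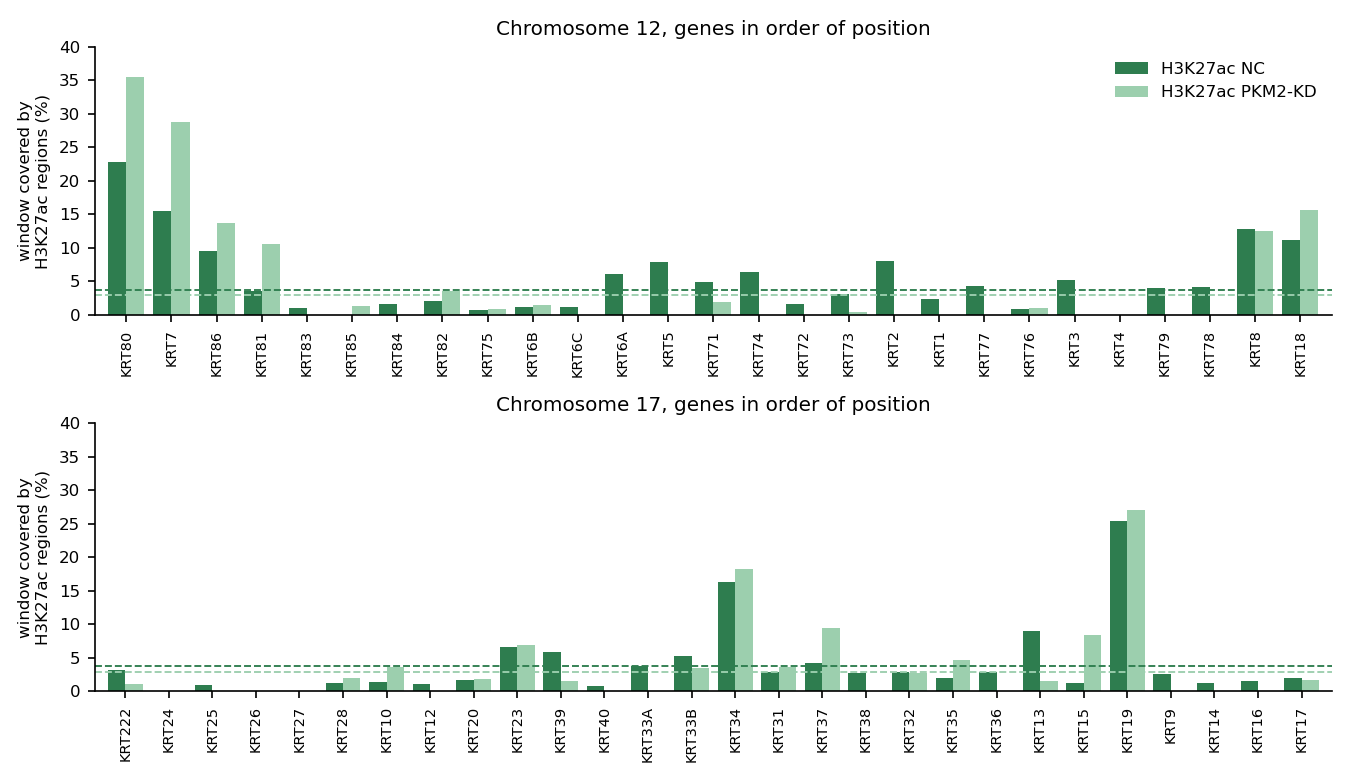
Percentage of each keratin gene's window (span plus 2 kb) covered by H3K27ac regions in NC (dark) and PKM2-KD (light), with genes in order of position on chromosomes 12 and 17; dashed lines give the value over the windows of all protein-coding genes (3.76% and 2.96%). The tall bars in both lists are KRT80, KRT7, KRT86, KRT8 and KRT18 on chromosome 12 and KRT34 and KRT19 on chromosome 17, while most genes between KRT83 and KRT78 have a dark bar and no light one.

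KRT80, a type II keratin that is more widely expressed than most of its family, carried the widest keratin region of the PKM2-KD list. Its H3K27ac NC list had 13 regions over 6165 bp, the widest at chr12:52190657-52193371 (2715 bp, fold 21.3, height 149), with fold giving the summit signal relative to the background the caller used. In PKM2-KD it had 8 regions over 9609 bp, the widest at chr12:52189468-52193772 (4305 bp, fold 43.2). Both cover the upper end of the gene at 52192014. Inside or beside these H3K27ac regions lay 3 H3T11ph regions in NC, and that at chr12:52192171-52192426 had the highest H3T11ph fold of any keratin region, 97.1. H3T11ph PKM2-KD had 1 region there, at chr12:52191949-52192046, with a fold of 39.4 and a height of 111. KRT80 was the 1 keratin gene with an H3T11ph region in both lists, but the regions themselves did not overlap. No NONO region lay in its window in either list.

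KRT7, a type II keratin of simple and glandular epithelia, had 16 H3K27ac regions over 4124 bp in NC and 11 over 7655 bp in PKM2-KD. At its lower end NC had regions of 1322 and 1110 bp where PKM2-KD had 1 of 3377 bp (chr12:52230507-52233883, fold 33.7). NONO NC had 2 regions in KRT7, with folds of 28.9 and 41.5, and the latter lay on an H3K27ac NC region. NONO-KD had 1 just past the other end of the gene, chr12:52256840-52256941, at a fold of 46.2. H3T11ph was listed in PKM2-KD only, at a fold of 3.92.

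KRT86, a hair keratin whose annotated span holds that of KRT81, had a wide H3K27ac region of 2555 bp in NC (chr12:52279072-52281626, fold 33.4) and of 3081 bp in PKM2-KD (chr12:52278892-52281972, fold 12.9, height 172). One NONO NC region (fold 12.5, height 49) and 2 H3T11ph PKM2-KD regions (folds of 22.95 and 29.3) lay inside these intervals, and H3T11ph NC had none in the gene. KRT81, a hair keratin also known from breast cancer lines, had 3 regions over 337 bp in NC, none of them wide, and 1 of 1019 bp in PKM2-KD at chr12:52287679-52288697 (fold 9.22, height 16). No NONO or H3T11ph region lay in the window of KRT81.

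KRT8 and KRT18, the pair that forms the filaments of simple epithelia, lie side by side at the far end of the cluster. KRT8 had 24 H3K27ac regions over 7260 bp in NC and 12 over 7086 bp in PKM2-KD. The widest covered the promoter printed above in both lists, at chr12:52924714-52927756 in NC (3043 bp, fold 13.7, height 130) and at chr12:52924704-52927769 in PKM2-KD (3066 bp, fold 4.77, height 136). The edges of these regions lay within a few bases of each other. The same stretch held a NONO NC region (chr12:52925013-52925281, fold 4.86), 2 H3T11ph NC regions (folds of 30.5 and 23.3) and a NONO-KD region (chr12:52927433-52927548, fold 37.3). The NONO NC region and the H3T11ph NC region at chr12:52925243-52925430 overlapped, which no other NONO NC and H3T11ph NC regions did in a keratin window. H3T11ph PKM2-KD had no region in KRT8 or KRT18.

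Where the ends of KRT8 and KRT18 meet, H3K27ac NC had a region of 671 bp (chr12:52949475-52950145, fold 24.4, height 68) and PKM2-KD one of 1257 bp (chr12:52949074-52950330, fold 20.9, height 60). A NONO NC region at chr12:52949610-52949878 (fold 30.9, height 83) lay inside both. NONO-KD and both H3T11ph lists had no region in the KRT18 window, and NONO NC had a further one past its end at a fold of 19.0.

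KRT19, the type I keratin of simple and ductal epithelia, had 5 H3K27ac regions over 2208 bp in NC and 3 over 2354 bp in PKM2-KD. The widest, reaching into its window from below the gene, were 1642 bp at chr17:41521189-41522830 (fold 16.1, height 60) and 1934 bp at chr17:41521302-41523235 (fold 7.18, height 68). A NONO NC region of fold 63.9 lay inside both, and no other NONO or H3T11ph list had a region in KRT19. KRT23, a type I keratin known from glandular and gut epithelia, had a region of 808 bp in NC (fold 23.6) and of 863 bp in PKM2-KD (fold 25.5). Both lay just below the lower end of the gene. KRT23 had no NONO or H3T11ph region. KRT34, a hair keratin, had a region of 1314 bp in NC at a fold of 4.82 and of 966 bp in PKM2-KD at a fold of 4.60. NONO NC had 2 regions in KRT34, with folds of 40.9 and 41.6, and the latter (chr17:41381005-41381273) lay inside both H3K27ac regions.

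**Figure D3:**
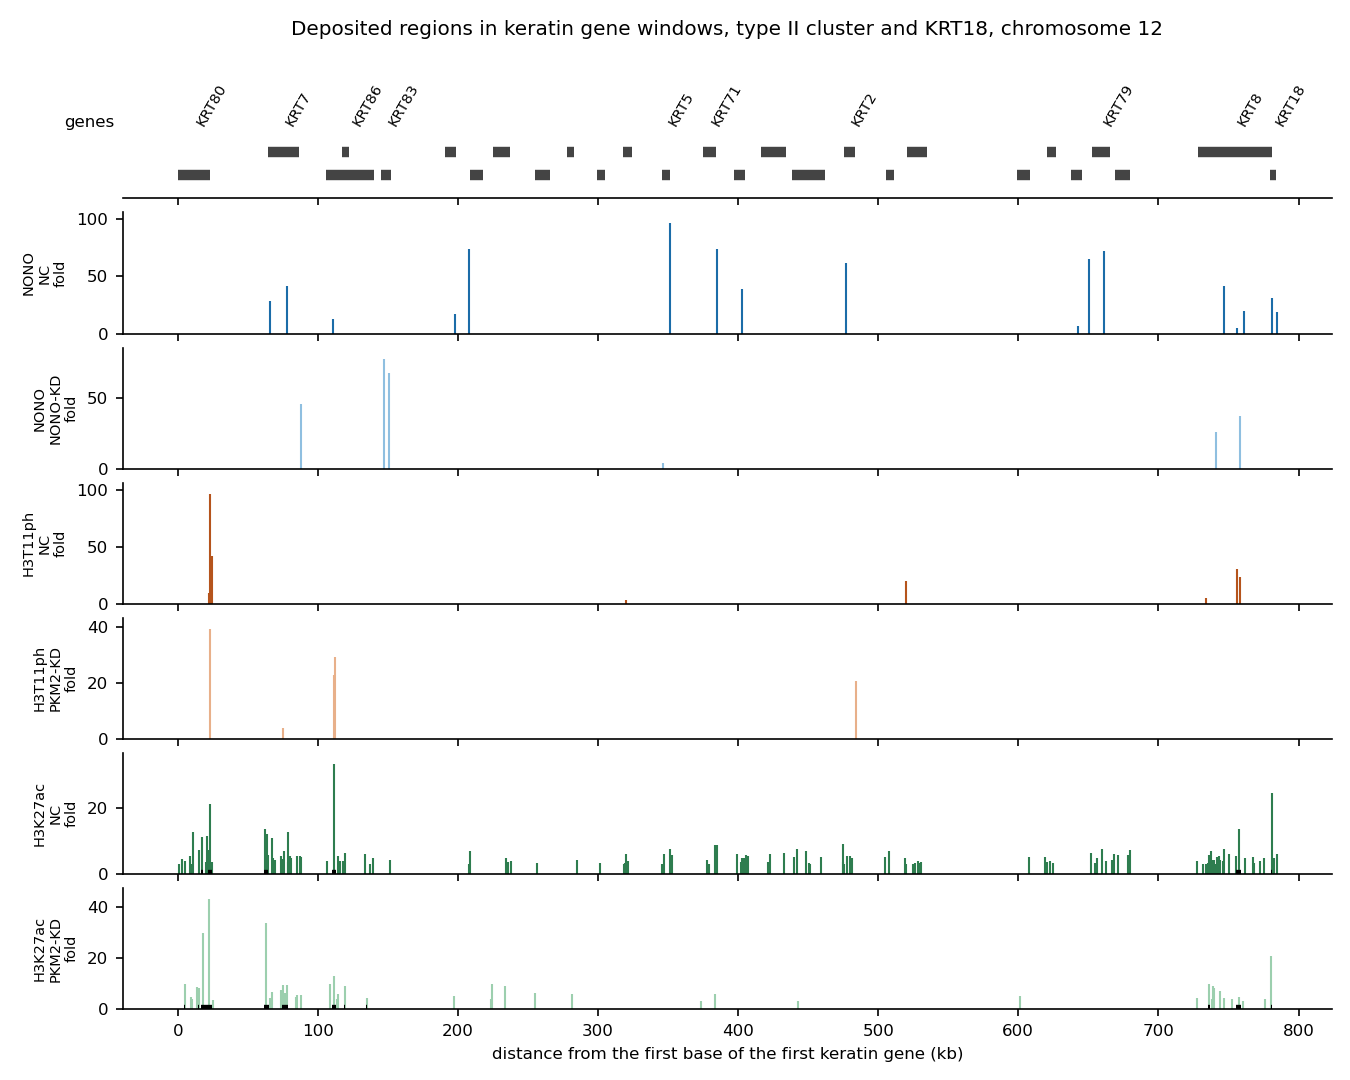
The type II keratin cluster and KRT18 on chromosome 12. The top row shows the gene spans (alternating in height for legibility), the 6 rows beneath show each region in a keratin window as a line at its position whose height is its fold (linear axes, scaled per list), and black bars on the baseline mark regions of 500 bp or more to scale; H3K27ac regions of PKM2-KD gather at both ends of the cluster, around KRT80, KRT7 and KRT86 and around KRT8 and KRT18, and few lie between.

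The genes between these ends were covered in NC by short regions that PKM2-KD mostly lacked. Split by position after the values had been seen, the 4 genes from KRT80 to KRT86 had 15.2% of their windows under H3K27ac in NC and 24.5% in PKM2-KD, and KRT8 with KRT18 had 12.3% and 11.9%. The 21 genes from KRT83 to KRT78 had 3.09% and 0.542%, with 66 regions in NC, 4 of them wide, and 10 in PKM2-KD. Over all protein-coding genes the values were 3.76% and 2.96%. On chromosome 17 the 12 genes from KRT222 to KRT40 had 2.27% and 1.71%, the 9 from KRT33A to KRT36 had 4.96% and 4.84%, and the 7 from KRT13 to KRT17 had 6.14% and 5.57%. The gap of 359.0 kb in that cluster, which holds 34 KRTAP genes of the hair shaft, had 6.55% and 4.03%. The whole chromosome 12 windows had 6.90% covered by 129 regions in NC and 7.14% by 47 regions in PKM2-KD, and those on chromosome 17 had 3.87% by 61 and 3.43% by 37. The near equality of the covered lengths did not hold for stronger regions: at a −log10 q of at least 5 chromosome 12 had 4.25% covered in NC and 6.40% in PKM2-KD, and chromosome 17 had 2.15% and 2.62%. With that limit, tried after the values had been seen, KRT83 to KRT78 still had more in NC, 1.17% in 22 regions against 0.301% in 6. No value over all genes is given at that limit, so a shift of the whole list cannot be told apart from one at keratin genes.

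**Figure D4:**
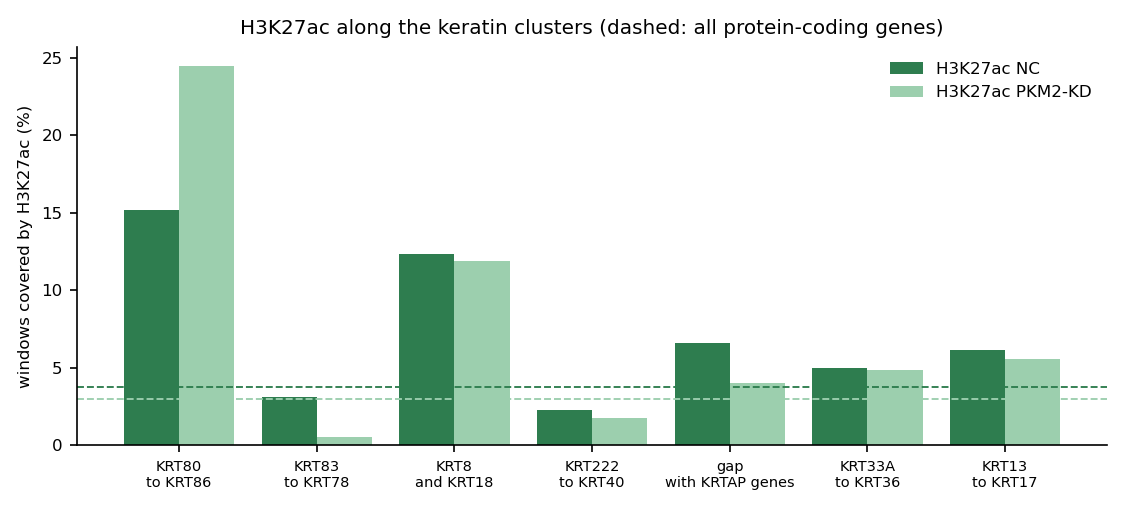
Percentage of sequence covered by H3K27ac regions in NC (dark) and PKM2-KD (light) for consecutive stretches of the clusters, with the values over all protein-coding gene windows as dashed lines (3.76% and 2.96%); the bar for the gap counts its whole length, the other bars gene windows only. KRT83 to KRT78 stands lowest in PKM2-KD at 0.542%, and KRT80 to KRT86 stands highest in both lists at 15.2% and 24.5%.

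By gene, H3K27ac was listed in both libraries for 28 of 55 keratin genes, against 84.5% of all genes. It was listed in NC only for 22, against 10.5%, and in PKM2-KD only for KRT85, against 1.74%. This split was much less one-sided with both lists at equal length (13 and 9 genes) and with regions of a −log10 q of at least 5 (14 and 8). The shares of all genes at these settings are not given. KRT4, KRT24, KRT26 and KRT27 had no H3K27ac region in either list. The 22 included most keratins of stratified epithelia. Of the basal layer keratins 3 of 3 had a region in NC and 1 in PKM2-KD, of the stress keratins 5 of 5 and 2, and of the suprabasal keratins 11 of 13 and 3. The inner root sheath keratins had one in 7 of 9 and 4, the hair keratins in 16 of 17 and 11, and the simple epithelial keratins in 5 of 5 and 5. At a −log10 q of at least 5 the counts in NC and PKM2-KD were equal for the basal layer (1 and 1), stress (2 and 2), hair (8 and 8) and simple epithelial keratins (4 and 4), and were 7 and 3 for the suprabasal and 5 and 3 for the inner root sheath keratins. The regions behind these NC-only genes were small, and KRT6A, KRT5 and KRT2 were the 3 of the 22 with a wide one.

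KRT5, the type II keratin of basal cells, had 4 H3K27ac regions over 769 bp in NC, of which one lay on its promoter (chr12:52520340-52520772, 433 bp, fold 7.47, height 19), and 0 in PKM2-KD. Beside that region, within the gene, NONO NC had its highest keratin fold, 96.4, at chr12:52519938-52520206. NONO-KD had 1 region in KRT5 at the other end of the gene, with a fold of 3.67 and a height of 4. KRT14, the type I partner of KRT5, had 1 H3K27ac region of 112 bp in NC and 0 in PKM2-KD. It had 1 NONO region in each list, at folds of 3.0 in NC and 41.5 in NONO-KD on opposite sides of the gene, and 2 H3T11ph NC regions with folds of 25.7 and 16.4 but none in PKM2-KD.

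Among the stress keratins, KRT6A had 4 H3K27ac regions over 609 bp in NC and 0 in PKM2-KD, and an H3T11ph NC region at a fold of 3.64 and a height of 4. KRT16 had 1 H3K27ac region of 112 bp in NC and 0 in PKM2-KD, and no region of NONO or H3T11ph. KRT17 had 2 H3K27ac regions in NC and 1 of 161 bp in PKM2-KD at another position. NONO NC placed 3 regions in KRT17, with folds of 8.42, 13.7 and 55.3, where NONO-KD placed 0. Reads from the near-identical copies KRT6A, KRT6B and KRT6C, and from KRT14, KRT16 and KRT17 and their pseudogenes, may not have been placed with certainty, since the aligner and its treatment of such reads are not given in the sources used here.

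**Figure D5:**
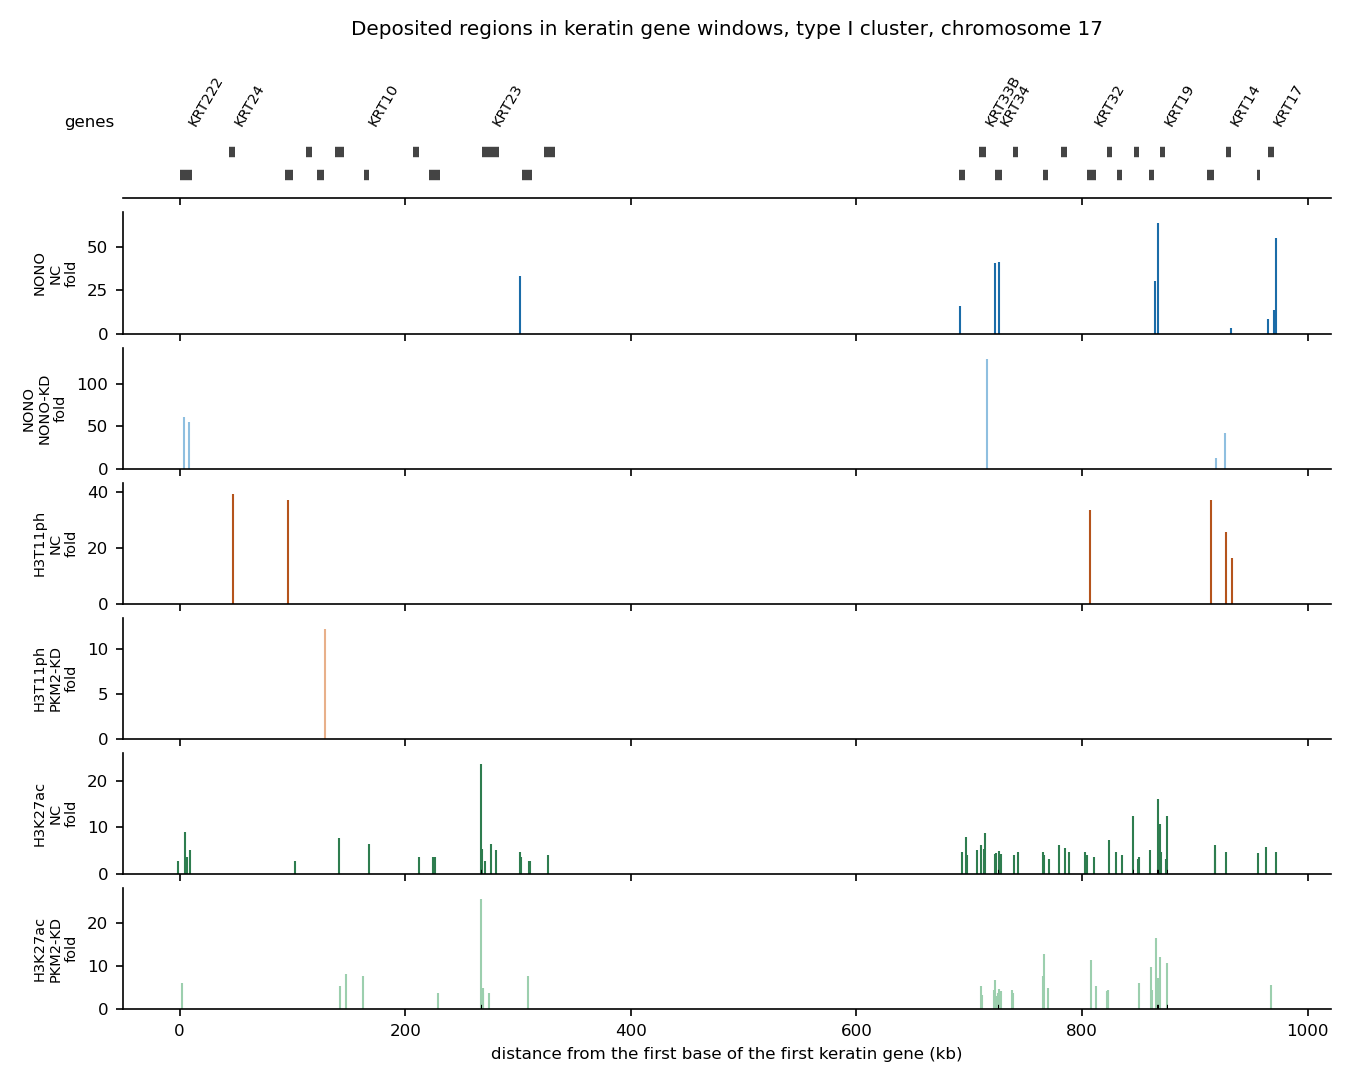
The type I keratin cluster on chromosome 17, drawn as for chromosome 12: gene spans at the top, then the fold of each region in a keratin window for the 6 lists on linear axes scaled per list, with regions of 500 bp or more in black on the baseline. The long empty stretch in the middle is the gap with the KRTAP genes, which are not members and whose regions are not drawn; NONO NC regions lie mainly to its right, and the NONO-KD region at KRT33B has a fold of 129.9.

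NONO regions on keratin genes were listed in NC only for 15 of 55 genes, against 31.7% of all genes. They were listed in NONO-KD only for 4, against 6.97%, and in both for 4, against 39.3%. The NC-only and NONO-KD-only counts were thus near the shares of all genes, and the count in both was lower. The 4 with both were KRT7, KRT5, KRT8 and KRT14, and in none of them did the regions of the 2 lists overlap. Of the 27 keratin regions of NONO NC, 0 overlapped a NONO-KD region, which allows a share of up to 11.1%, against 2.01% of all NONO NC regions. The keratin regions of NONO NC had folds from 3.0 to 96.4 with a median of 33.2, against a median of 25.3 over all gene windows, and those of NONO-KD had a median of 46.2, against 35.0. After KRT5 the highest NONO NC folds were at KRT71 and KRT84, at 73.7 each, and at KRT79, at 72.7. KRT71 was grouped with the inner root sheath keratins, KRT84 with the hair keratins and KRT79 with the suprabasal keratins.

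The highest fold of any keratin region was in the NONO-KD list. It lay at chr17:41370013-41370134, over the upstream end of the KRT33B promoter printed above, with a fold of 129.9. NONO NC had no region in KRT33B, a hair keratin. KRT83, another hair keratin, likewise had 2 NONO-KD regions, with folds of 78.2 and 68.1, and none in NC, and KRT222 had 2 with folds of 61.0 and 54.8. The fourth gene listed in NONO-KD only was KRT9, the keratin of palm and sole epidermis, at a fold of 12.2.

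NONO NC regions in keratin windows met an H3K27ac NC region at 10 of 27 (37.0%, Wilson 95% interval 21.5 to 55.8), against 16.8% of all NONO NC regions. These included the regions at KRT86, KRT8, KRT18, KRT19 and KRT34 given above. The other way round, 10 of the 190 H3K27ac NC keratin regions met a NONO NC region (5.26%, interval 2.88 to 9.42), against 2.64% of all. Overlap meant at least 1 shared base, so wider regions met others more readily. The shares over all regions, here and for the other overlaps given, also took in regions outside gene windows. They are thus not matched to the keratin regions, and the share within gene windows is not given.

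H3T11ph, the pair of lists with 1 form, was listed in NC only for 8 of 55 keratin genes (18.4% of all genes), in PKM2-KD only for 4 (15.4%) and in both for KRT80 alone (32.7%). The 8 were KRT6A, KRT77, KRT8, KRT24, KRT25, KRT32, KRT9 and KRT14, and the 4 were KRT7, KRT86, KRT2 and KRT27. Beside KRT80 the highest folds were at KRT24, a suprabasal keratin, at 39.4, and at KRT25, of the inner root sheath, and KRT9, at 37.2 each, all in NC. In PKM2-KD the highest after KRT80 was 29.3 at KRT86. Of the 14 NC regions 0 overlapped a PKM2-KD region, which allows a share of up to 21.4%, against 5.75% of all H3T11ph NC regions. The median fold of the keratin regions was 28.1 in NC and 21.9 in PKM2-KD, against 17.7 and 21.8 over all gene windows. H3T11ph NC regions met H3K27ac NC at 4 of 14 (28.6%, interval 11.7 to 54.6), against 19.7% of all.

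For the genes that work with keratins the counts of H3K27ac are given beside those of all genes, of which 94.9% had a region in NC and 86.2% in PKM2-KD, and 64% and 69.1% a wide one. Of 20 desmosome and keratin linker genes, which anchor the filaments at the cell border, 20 had an H3K27ac region in NC and 18 in PKM2-KD, wide in 17 and 12. Within this list PLEC, the linker plectin, had 10459 bp covered in NC and 15532 bp in PKM2-KD, while the epidermal cadherin DSG1 had 1059 and 0 bp. Of 15 other intermediate filament genes 14 and 13 had a region, wide in 9 and 9, and LMNA had 16368 and 20112 bp covered. Of 16 regulators of keratin genes 15 and 15 had one, wide in 10 and 12. ZEB1, a repressor of epithelial genes, had 9207 and 7492 bp covered, and TP63, the regulator of basal keratins, 12381 and 6623 bp. The lengths given for PLEC, DSG1, LMNA, ZEB1 and TP63 were not divided by the length of each gene. They therefore do not rank these genes against one another or against the keratins. Of the 34 KRTAP genes on chromosome 17, 27 and 14 had a region, wide in 11 and 9. The lists differ in gene length, and no test was made between them and the keratin genes, where a wide region lay in 15 and 14 of 55.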

How the data were processed

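The 6 CUT&Tag libraries of MDA-MB-231 cells were placed in their groups from the sample titles, 1 library per group. Which reagent made the knockdowns used for CUT&Tag, the aligner, the handling of duplicates and any control library are not given in the sources used here. The submitters' processing notes name the build hg38 and the tools FastQC 0.11.9, cutadapt 1.18, SAMtools 1.3.1, MACS2 2.1.1.20160309 and DESeq2, with no role for each. The authors deposited 1 narrowPeak list per library, in which each region has a score, a fold enrichment (a ratio at the summit over the caller's background), p and q as −log10 values, and a summit position. The smallest −log10 q was 1.30 to 1.32, so only regions past a q near 0.05 were listed.

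Genes and promoters came from RefSeq tables of GRCh38.p14, the build of the lists, so that coordinates could be joined directly. A gene was counted when a region touched its span plus 2 kb, and a start when a region lay within 1 kb of a promoter-table start or, for genes without an entry, of either gene end. Lengths covered were taken once where windows overlapped. Summit heights were estimated as the whole number that best gives the deposited fold and −log10 p under a Poisson background, within 0.002 and for a −log10 p below 200. More than 1 whole number can pass that limit, and the closest was kept, so a match does not make the height certain. Of 300 rows tried per list, 100% matched in 5 lists and 99.3% in H3K27ac NC, there with the pileup scaled by 0.521. Shares have Wilson and counts exact Poisson 95% intervals, which cover counting error only, since amplified fragments are not independent molecules. No test between conditions was made with 1 library per group. Work was done in Python 3.11.15 with pandas 2.3.3, NumPy 2.4.6, SciPy 1.17.1 and matplotlib 3.10.9, and the functions were tested on simulated lists.

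KRT5, KRT6A, KRT7, KRT8, KRT14, KRT16, KRT17, KRT18, KRT19, KRT80 and KRT81 were always named, together with the 8 keratins of greatest H3K27ac length and the 4 of highest fold for NONO and for H3T11ph. Others are named where a count of genes is spelled out, and were chosen after their values were seen. PLEC, DSG1, LMNA, ZEB1 and TP63 were not named by a fixed rule. The members, gene lists and stretches were chosen with earlier results of these data known. Alternatives changed the q threshold, the least width, the margin, the overlap rule and the list length.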

Additional observations from a re-analysis of the deposited data

Results flagged for a closer look

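Keratin pseudogenes inside the clusters, 13 in all, were not part of the comparisons. Their windows outside those of the keratin genes spanned 100.7 kb and held more than the 3 regions that a count of 0 allows in 4 lists, namely 32 and 7 for H3K27ac (NC and PKM2-KD), 4 for NONO NC and 4 for H3T11ph PKM2-KD. NONO-KD had 1 and H3T11ph NC had 3. Given their counting error, these densities could not be told apart from those of genes at large. In all 6 lists the density over all protein-coding genes lay inside the exact Poisson 95% interval of the pseudogene density. The pseudogene density was the lower one in NONO-KD and H3K27ac PKM2-KD and the higher one in the other lists. It was 317.8 per Mb (interval 217.4 to 448.6) against 224.1 in H3K27ac NC, and 39.7 (interval 10.8 to 101.7) against 14.2 in H3T11ph PKM2-KD. Pseudogenes share sequence with their parent genes, and whether these regions were placed correctly was not tested.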

How the results depend on the processing

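No paired analysis was possible because no group had a second library and no fit was made. Over 6 alternatives, 173 of the values recomputed stayed within 1.5 times the reported one, 93 moved further and 2 turned direction. The cause was not tested where it does not follow from the alternative itself. Except for the genes with a wide region, no value over all genes stands beside the alternatives.

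With regions of a −log10 q of at least 5, 2 keratin genes had NONO in both lists, and H3K27ac was in NC only for 14, in PKM2-KD only for 8 and in both for 16. H3K27ac NC then lay in 30 genes and at 16 starts, with 43 regions on chromosome 12 (4.25% covered) and 18 on chromosome 17 (2.15%), and in 1 basal layer, 2 stress, 7 suprabasal and 8 hair keratins. H3K27ac PKM2-KD had 29 regions on chromosome 12 (6.40%) and 22 on chromosome 17 (2.62%), and lay in 1 basal layer, 2 stress, 3 suprabasal and 8 hair keratins. From KRT83 to KRT78, tried after seeing the data, NC had 22 regions (1.17%) and PKM2-KD 6 (0.301%).

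With only wide regions (2 times the narrowest width or more), the order of the NONO counts turned, with 0 genes in the NC list alone, 1 in the NONO-KD list alone and 0 in both. Over all 19974 protein-coding genes the NONO order turned as well, with 648, 675 and 167. H3T11ph was in NC only for 1, in PKM2-KD only for 1 and in both for 0, against 1140, 1176 and 512 over all genes. H3K27ac was so for 7, 6 and 8. NONO NC then had 0 genes, 0 starts, 0 regions and 0% covered. NONO-KD had 1 gene, 0 starts and 1 region (0.030%), H3T11ph NC 1 gene, 1 start and 1 region (0.035%), and H3T11ph PKM2-KD 1 gene, 0 starts and 1 region (0.026%). H3K27ac NC lay in 15 genes and at 11 starts, with 23 regions on chromosome 12 (3.97%) and 7 on chromosome 17 (1.69%), in 1 basal layer, 2 stress, 2 suprabasal, 1 inner root sheath and 3 hair keratins. H3K27ac PKM2-KD lay in 14 genes and at 7 starts, with 22 regions on chromosome 12 (6.31%) and 12 on chromosome 17 (2.13%), in 0 stress, 1 suprabasal, 0 inner root sheath and 5 hair keratins.

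With no margin and starts read within 500 bp, NONO was in NONO-KD only for 2 genes and in both for 2, H3T11ph in PKM2-KD only for 2, and H3K27ac in PKM2-KD only for 3. NONO NC lay at 4 starts, NONO-KD in 4 genes and at 1 start with 7 regions, H3T11ph PKM2-KD in 3 genes and at 1 start, and H3K27ac NC at 15 starts, in 3 stress keratins and with 37 regions on chromosome 17, where PKM2-KD had 24.

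With 5 kb, NONO was in both for 7, H3T11ph in PKM2-KD only for 7 and H3K27ac in PKM2-KD only for 0. NONO NC lay at 19 starts, NONO-KD in 13 genes and at 9 starts, H3T11ph NC at 10 starts, H3T11ph PKM2-KD in 8 genes and at 7 starts, and H3K27ac at 51 starts in NC and 33 in PKM2-KD, there with 2 basal layer and 6 suprabasal keratins. With summits in place of whole regions, NONO-KD lay at 2 starts. With both lists cut to equal length by q, H3K27ac was in NC only for 13 and in PKM2-KD only for 9.

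The NONO and H3T11ph counts rest on at most 27 regions, so single regions move them.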
